A study of Nothobranchius furzeri with 16 samples.

Results

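The data described here are 57 genes whose RNA was at most 1/3 as abundant in old as in young brains of the African turquoise killifish (Nothobranchius furzeri), a short-lived annual fish used to study vertebrate aging. Old fish were 26 weeks and young fish 6 weeks of age, all male, of strain MZM-04/10p, with no treatment given in the labels. Whole brains gave 4 old and 4 young RNA libraries, and 4 old and 4 young libraries of ribosome footprints, the RNA fragments that ribosomes protect. The old RNA libraries carry the number 22 in their titles and 26 weeks in their age labels, and the age label was used. Nothing in the labels ties a library to its own fish, and the spread between libraries may thus be partly technical.

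The genes were chosen on CPM, the reads of a gene per 1000000 counted reads of its library, in replicates 2, 3 and 4 of each age. A gene entered when its mean CPM over these 6 libraries was at least 1 and its highest old value was at most 1/3 of its lowest young value. Of 16286 genes with that mean, 58 met the fold condition, a share of 0.356%. One of them, STMN1B, was set aside because it is among the 300 shortest of the well expressed genes, which left 57. The low old values of these genes in replicates 2 to 4 are therefore the choice itself and carry no test. Replicate 1 of each age was not used for the fold condition and entered only the length step.

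The replicate 1 libraries stood apart from the other 6. On log2(CPM + 1), their correlation with the other libraries was between 0.866 and 0.918 across genes, against 0.944 to 0.993 among the other 6 and 0.978 between old replicate 1 and young replicate 1. RNA libraries held 9461792 to 13771769 counts, so that 3 reads, the limit a count of 0 allows, stood for 0.218 to 0.317 CPM. The marker genes of neurons were present throughout, with a summed 1840 to 3826 CPM in old and 2046 to 4300 CPM in young libraries, the replicate 1 library being the lowest of each age. The 57 genes were thinly covered in old brain, with a median of 34.0 counts summed over old replicates 2 to 4, and 9 of them had under 10.

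The deposited RNA tables give gene identifiers only. The study's annotation paired 31 of the 57 with a killifish name or the name of the closest human gene, and the other 26 are given by identifier. These names cover 5155 of the 16286 genes and come from shortened tables that the study ordered by its own age comparisons, so the named genes are a selected part of the list. Where a gene has several copies in the fish genome, reads may have been split between them in ways the sources do not state.

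Most named members belong to the machinery of cell division. In the brain of a fish, unlike that of a mammal, progenitor cells along the ventricles go on dividing and add neurons through adult life, and killifish keep such zones while they age. A dividing cell first makes nucleotides and copies its DNA, then condenses its chromosomes, builds a spindle of microtubules, attaches the chromosomes to it and finally splits into daughter cells. Many transcripts for these steps are made only in the cell cycle phase that needs them. Their CPM in a whole tissue is a share of all its RNA. It follows the number of dividing cells, the RNA in each and the RNA of all other cells. In these bulk samples, fewer dividing cells, less of these transcripts per cell and more RNA from other cells cannot be told apart.

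Of the 57 genes, 18 have a known part in DNA replication, mitosis or the cell cycle. Of these, 16 were in the lists of the cell cycle or of DNA replication, and CKAP2L and CDCA7 were added after the values were seen. Their summed level was 65.5, 47.8, 70.6 and 39.8 CPM in old replicates 1 to 4, against 265, 286, 278 and 303 CPM in young replicates 1 to 4. Every old sum lay far below every young one, in the replicate 1 pair too. Within replicates 2 to 4, the mean young level of single genes in this group exceeded the mean old level by 3.86 to 7.83 times, with a median of 6.10.

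The switches of the cycle were among them. CDK1, the kinase that drives entry into mitosis, had 2.18, 2.25, 2.85 and 1.30 CPM in old replicates 1 to 4, against 7.48, 13.4, 8.68 and 12.2 CPM in young ones. CCNB1, the cyclin that activates it, had 1.68, 1.78, 2.75 and 1.63 CPM in old libraries, against 7.70, 14.4, 9.66 and 13.6 CPM in young libraries. CCNA2, the cyclin of S phase and of the approach to mitosis, had 0.754, 1.12, 1.16 and 0.733 CPM in old libraries, against 4.57, 5.78, 8.32 and 5.88 CPM in young libraries. The old and young values of the kinase and of both its cyclins did not overlap, in replicates 2 to 4 by the choice and with the replicate 1 values added as well. Of all 16286 genes, 7.53% had all 4 old values below all 4 young ones. PLK1, a kinase that acts in mitotic entry, spindle assembly and cell splitting, had 4.53, 3.46, 4.76 and 1.96 CPM in old libraries, against 13.3, 24.1, 19.4 and 21.9 CPM in young libraries. CDCA7, a gene of the cycle with a role in maintaining DNA methylation, had the smallest ratio of young over old of the 18 in the replicate 1 pair. That ratio was 2.31, with 3.52 CPM in the old and 8.13 CPM in the young library.

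MKI67 encodes Ki-67, the coat protein of mitotic chromosomes and the usual marker of dividing cells in tissue sections. It had 5.78, 5.71, 10.1 and 5.46 CPM in old replicates 1 to 4, against 32.7, 38.4, 39.5 and 38.4 CPM in young ones. Old replicate 3 stood above the other old libraries here and still far below every young one. RRM2, the small subunit of ribonucleotide reductase, which makes the building blocks of DNA, had 6.79, 6.37, 14.5 and 4.73 CPM in old libraries, against 27.5, 51.1, 48.7 and 50.9 CPM in young libraries. RRM1, the large subunit of the same enzyme, had 1.76, 1.59, 2.11 and 1.47 CPM in old libraries, against 8.86, 9.29, 9.03 and 11.5 CPM in young libraries. MCM6, a subunit of the helicase that opens DNA for copying, had 11.0, 5.90, 6.87 and 5.70 CPM in old libraries, against 32.1, 21.3, 23.5 and 26.4 CPM in young libraries.

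Both subunits of ribonucleotide reductase have a second copy in the annotation, and the second copies gave values of their own. The second RRM2 gene, Nfu_g_1_019000, had 57.2, 35.9, 32.1 and 36.6 CPM in old libraries, against 50.5, 29.8, 30.5 and 30.8 CPM in young ones. It was not lower in old brain, with a log2 fold change of 0.33 within replicates 2 to 4 (edgeR adjusted p = 0.0318) and 0.35 over all 8 libraries (edgeR adjusted p = 0.577). The second RRM1 gene, Nfu_g_1_000449, had 15.3, 16.6, 20.8 and 19.5 CPM in old libraries, against 27.6, 43.3, 40.5 and 45.7 CPM in young libraries. Its log2 fold change was -1.06 within replicates 2 to 4 (edgeR adjusted p = 0.000933) and -0.93 over all 8 libraries (edgeR adjusted p = 0.136).

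The spindle and chromosome genes made up the rest of the group. KIF11, the motor that pushes the spindle poles apart, had 2.60, 2.62, 4.02 and 2.85 CPM in old libraries, against 16.0, 18.7, 18.5 and 20.6 CPM in young libraries. NUSAP1, which bundles spindle microtubules, had 4.11, 1.87, 4.02 and 2.12 CPM in old libraries, against 12.8, 14.9, 17.7 and 17.0 CPM in young libraries. NDC80, the kinetochore subunit that holds microtubules, had 0.754, 0.749, 1.06 and 0.489 CPM in old libraries, against 4.94, 6.24, 5.28 and 5.63 CPM in young libraries. CENPF, a large kinetochore protein, had 6.96, 6.74, 7.40 and 5.70 CPM in old libraries, against 19.3, 23.8, 28.3 and 30.8 CPM in young libraries. All 4 of these genes kept their old values below their young values with replicate 1 added, which the choice did not require. Of all 16286 genes, 7.53% did so, and the choice in replicates 2 to 4 favours it. RACGAP1 and KIF20A act late, when the cell body divides. RACGAP1 had 2.51, 1.50, 2.01 and 1.63 CPM in old libraries, against 6.39, 6.95, 6.80 and 7.61 CPM in young libraries. KIF20A had 5.70, 1.97, 1.80 and 1.14 CPM in old libraries, against 21.9, 11.6, 8.23 and 11.6 CPM in young libraries. KIF14, another motor of this late step, had the lowest values of the group together with DLGAP5, a spindle protein. KIF14 stood at 0.754, 0.468, 0.317 and 0.489 CPM in old libraries, against 2.69, 3.12, 3.13 and 2.90 CPM in young libraries. DLGAP5 stood at 0.251, 0.187, 0.740 and 0.326 CPM in old libraries, against 1.82, 2.42, 2.33 and 3.15 CPM in young libraries.

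**Figure D1:**
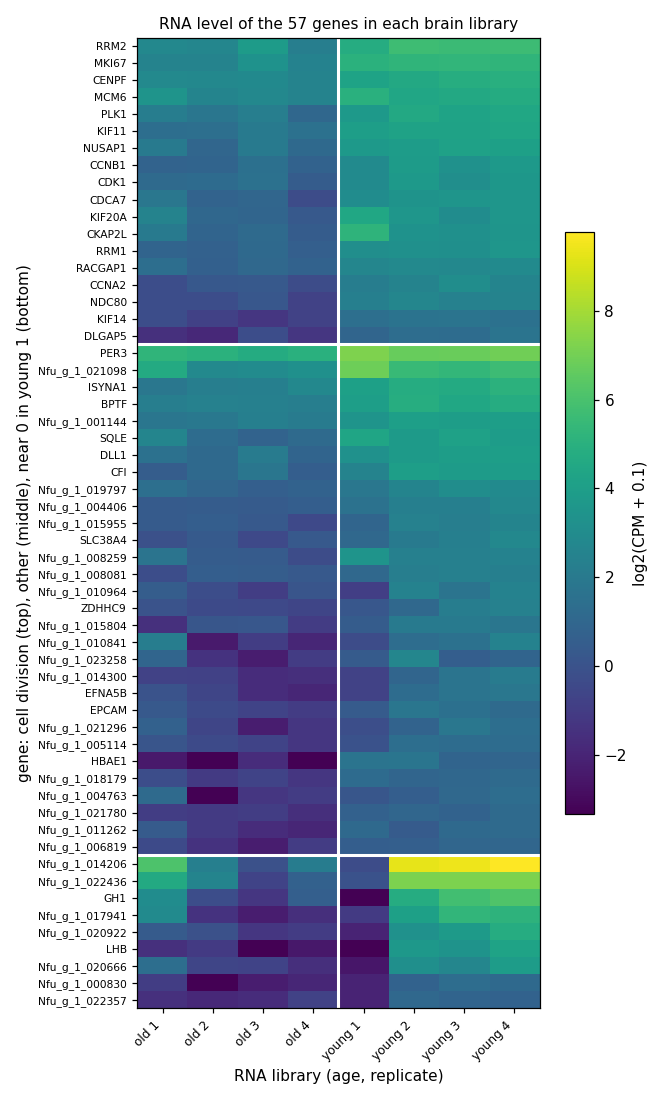
Level of each of the 57 genes (rows) in the 8 RNA libraries (columns, old left of young), as log2(CPM + 0.1). The 18 cell division genes at the top are lower in all 4 old libraries than in all 4 young libraries, and the 9 genes at the bottom are high in young replicates 2 to 4 but near 0 in young replicate 1.

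The replicate 1 pair gave the only RNA values that the choice had not used. With 1 library per age it allows no test. In this pair, 26 of the 57 genes were at most 1/3 as abundant in the old as in the young library, against 1.26% of the 16286 genes and 1.28% of those left by the length step. At a threshold of 1/2 they were 35 of the 57, against 3.89% of all genes, and 41 of the 57 were lower in old at all, against 52.9% of all genes. The 18 cell division genes were lower in old without exception, and 13 of them were at most 1/3 of the young level. CKAP2L, a spindle protein, had the widest gap of this group, with 3.94 CPM in old replicate 1 and 36.7 CPM in young replicate 1. Over all 8 libraries, 40 of the 57 genes had 4 old values below all 4 young values, the 18 cell division genes among them, against 7.53% of all genes, a share the choice in 6 of these libraries has raised. With the threshold of 1/3 applied to all 8 libraries, 9 genes remained, or 0.0553% of all genes, and 7 of them were cell division genes: KIF11, CCNA2, RRM1, MKI67, NUSAP1, KIF14 and NDC80. The others were HBAE1 and Nfu_g_1_021780.

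**Figure D2:**
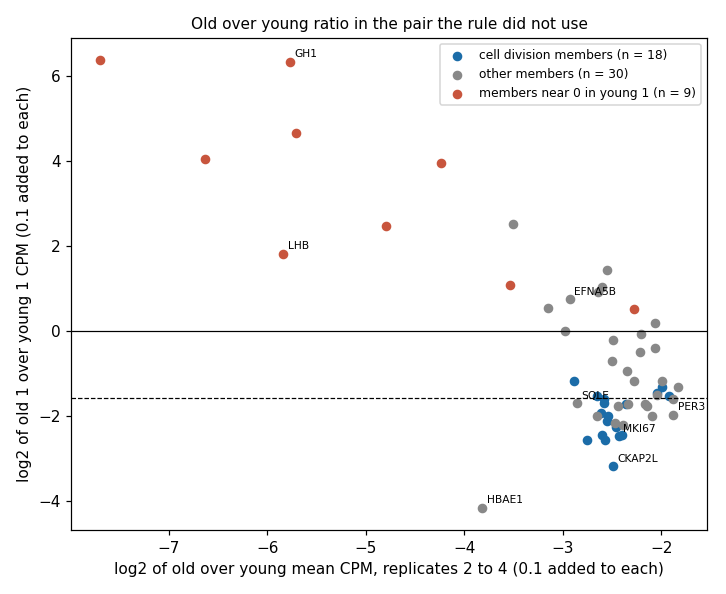
Log2 ratio of old over young CPM in replicate 1 (vertical, 0.1 added to each value) against the log2 ratio of mean CPM in replicates 2 to 4 (horizontal), 1 point per gene. The solid line marks equal levels and the dashed line 1/3, and the 18 cell division genes (blue) all lie below the solid line while the 9 genes near 0 in young replicate 1 (red) all lie above it. The red genes were set apart by their low young replicate 1 value, which favours that position.

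The wider lists of the same pathways were looked at outside the 57 genes, with edgeR's quasi-likelihood test across all genes and Benjamini-Hochberg adjustment at 0.05. Over all 8 libraries this test called 29 of 16759 genes lower in old brain, or 0.173%, and 28 higher, or 0.167%. At an unadjusted p under 0.05, 1274 of the 16759 genes were lower and 1243 higher. Within replicates 2 to 4 it called 2642 of 16614 genes lower, or 15.9%, and 2656 higher, or 16.0%. Genes of the lists could be found only through the same selected names, while the shares over all genes include genes without a name. Symbols found were 57 of 98 for the cell cycle and 36 of 73 for DNA replication. For chromatin they were 25 of 41, and for progenitor factors 41 of 97. The part of this selection in the list shares was not tested. The cell cycle and mitosis list held 46 tested genes besides the members. Within replicates 2 to 4, 33 of the 46 were called lower and 1 higher, with a median log2 fold change of -0.93, against -0.00 over all tested genes. Over all 8 libraries, 1 of the 46 was called lower and none higher, with 24 lower and 1 higher at an unadjusted p under 0.05. The called gene, SMC2, a condensin subunit and named here after its values were seen, had 3.60, 1.78, 3.59 and 2.28 CPM in old libraries, against 11.8, 9.37, 11.6 and 12.9 CPM in young libraries (edgeR log2 fold change -1.83, adjusted p = 0.0429). In the replicate 1 pair, 41 of the 46 were lower in old, and 9 were at most 1/3 of the young level.

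The 3 most abundant of these other genes were SMC4, CIT and LMNB1. SMC4, the partner of SMC2 in condensin, had 106, 33.0, 45.6 and 33.1 CPM in old libraries, against 241, 86.6, 69.4 and 79.4 CPM in young libraries. Its log2 fold change was -0.95 within replicates 2 to 4 (edgeR adjusted p = 0.00289) and -0.99 over all 8 libraries (edgeR adjusted p = 0.409). LMNB1, a lamin of the nuclear envelope, had 30.3, 60.8, 66.6 and 57.3 CPM in old libraries, against 60.1, 114, 112 and 112 CPM in young libraries, with a log2 fold change of -0.75 within replicates 2 to 4 (edgeR adjusted p = 0.000962) and -0.69 over all 8 libraries (edgeR adjusted p = 0.352). CIT, the kinase citron of the dividing cell's midbody, had 161, 71.2, 56.6 and 69.8 CPM in old libraries, against 186, 86.8, 110 and 130 CPM in young libraries. The log2 fold change was -0.59 within replicates 2 to 4 (edgeR adjusted p = 0.0110) and -0.37 over all 8 libraries (edgeR adjusted p = 0.687).

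Fewer genes of DNA replication and repair were called. Of the 35 tested genes of that list besides the members, 15 were called lower and 2 higher within replicates 2 to 4, with a median log2 fold change of -0.41, and edgeR called none over all 8 libraries, with 13 lower and 1 higher at an unadjusted p under 0.05. PCNA, the clamp that holds the DNA polymerase on its template, had 34.6, 56.0, 48.5 and 58.4 CPM in old libraries, against 55.4, 112, 112 and 120 CPM in young libraries. Its log2 fold change was -0.95 within replicates 2 to 4 (edgeR adjusted p = 0.000310) and -0.82 over all 8 libraries (edgeR adjusted p = 0.238). POLD1, the catalytic subunit of a replicative polymerase, had 57.6, 60.4, 71.2 and 65.3 CPM in old libraries, against 64.8, 57.3, 63.1 and 59.3 CPM in young libraries, values that overlap.

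None of the 57 genes was in the lists of chromatin factors or of neural progenitor factors, yet both lists held genes called lower within replicates 2 to 4. The chromatin list does not hold BPTF, a chromatin remodeller subunit, or CDCA7, which are both among the 57. Of 33 tested chromatin genes, 23 were called lower and none higher, with a median log2 fold change of -0.61. Of 40 tested progenitor and neurogenic genes, 23 were called lower and 1 higher, with a median of -0.61. FABP7, the fatty acid binding protein of radial glia, the progenitor cells of the fish brain, had 316, 800, 560 and 761 CPM in old libraries, against 533, 1525, 1485 and 1394 CPM in young libraries. Its log2 fold change was -0.93 within replicates 2 to 4 (edgeR adjusted p = 0.00139) and -0.82 over all 8 libraries (edgeR adjusted p = 0.380). TCF7L2 and LHX9, next in abundance among the progenitor genes, were not called within replicates 2 to 4. Their log2 fold changes there were -0.14 (edgeR adjusted p = 0.312) and 0.11 (edgeR adjusted p = 0.326). FABP7 is also an astroglia marker, and of 7 tested markers of that list 1 was called lower and none higher within replicates 2 to 4, with a median of -0.03. The summed level of the astroglia list, FABP7 included, was 2637, 7330, 6754 and 5556 CPM in old libraries. In young libraries it was 3321, 10056, 9859 and 8485 CPM, with no overlap within replicates 2 to 4. The part of astroglia content in the progenitor values was not tested. Over all 8 libraries edgeR called no gene of the chromatin or the progenitor list, with 11 lower and 1 higher for chromatin and 13 lower and 2 higher for progenitor factors at an unadjusted p under 0.05. With a term that set the replicate 1 libraries apart from the rest, the fit over all 8 libraries called 1607 of 16759 genes lower, or 9.59%. It called 31 genes lower besides the members in the cell cycle list, 15 in the DNA replication list, 17 in the chromatin list and 20 in the progenitor list.

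Markers of neurons were tested in the same fits. Of 23 tested neuron markers, 10 were called lower and 4 higher within replicates 2 to 4, with a median log2 fold change of -0.49. Over all 8 libraries edgeR called none of them, with 3 lower and 1 higher at an unadjusted p under 0.05. The part of neuron content in the values of the cell division, replication, chromatin and progenitor lists was not tested.

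**Figure D3:**
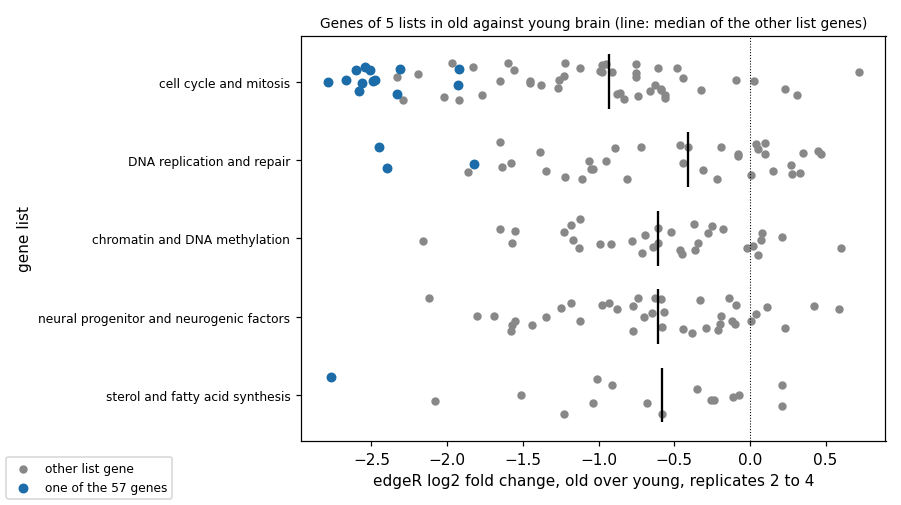
Log2 fold change of old over young brain within replicates 2 to 4 (edgeR) for the genes of 5 lists, with members of the 57 in blue, other list genes in grey and a line at the median of the grey points. The grey medians are -0.93 for the cell cycle, -0.41 for DNA replication, -0.61 for chromatin, -0.61 for progenitor factors and -0.58 for sterol and fatty acid synthesis.

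Outside cell division, 11 named genes with other functions were among the 57, with mean young levels 3.68 to 32.6 times the mean old ones in replicates 2 to 4. PER3, a repressor in the circadian clock whose transcript rises and falls over the day in many tissues, had 37.7, 32.5, 26.6 and 31.9 CPM in old libraries, against 149, 105, 108 and 122 CPM in young libraries. The old values lay close together, and the young ones far above them, in the replicate 1 pair as well. The study's methods state that its fish were fasted and always killed at the same hour of the morning. The part of the time of day in the PER3 values was not tested.

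SQLE, squalene epoxidase, an early oxygen-dependent and rate-limiting step of cholesterol synthesis, had 6.20, 2.34, 1.69 and 2.20 CPM in old libraries, against 20.5, 14.1, 18.2 and 14.8 CPM in young libraries. Old replicate 1 stood above the other old libraries and still below every young one. Of the 15 other tested genes of sterol and fatty acid synthesis, 7 were called lower and none higher within replicates 2 to 4, with a median log2 fold change of -0.58, and edgeR called none over all 8 libraries, with 4 lower and none higher at an unadjusted p under 0.05 and 6 called lower with the replicate 1 term. FADS2, a fatty acid desaturase and the most abundant of them, changed by a log2 fold of -0.35 within replicates 2 to 4 (edgeR adjusted p = 0.0379) and of -0.29 over all 8 libraries (edgeR adjusted p = 0.689). ISYNA1, the enzyme that makes inositol from glucose 6-phosphate, had 3.60, 4.68, 4.86 and 6.76 CPM in old libraries, against 17.1, 27.5, 25.5 and 33.8 CPM in young libraries. Its replicate 1 values, which the choice did not use, left no overlap either. The 4 old values lay below all 4 young ones in 7.53% of all genes. SLC38A4, an amino acid transporter, had 0.838, 1.22, 0.634 and 1.14 CPM in old libraries, against 2.03, 3.90, 5.01 and 6.79 CPM in young libraries.

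DLL1, a Notch ligand that newborn neurons display to keep neighbouring progenitors undifferentiated, had 2.85, 2.15, 4.23 and 1.79 CPM in old libraries, against 9.88, 13.8, 15.7 and 16.1 CPM in young libraries. The annotation holds 2 further DLL1 copies, and both were lower in old brain without meeting the rule. Nfu_g_1_013765 had 6.12, 3.84, 4.86 and 3.67 CPM in old libraries, against 17.6, 11.8, 15.7 and 16.8 CPM in young libraries. Nfu_g_1_003154 had 2.93, 3.18, 4.76 and 4.89 CPM in old libraries, against 5.16, 9.60, 12.1 and 11.8 CPM in young libraries. The Notch, Wnt, Hedgehog, FGF and TGF-beta list held 24 other tested genes, these 2 copies among them. Within replicates 2 to 4, 5 of the 24 were called lower, both copies included, and 4 higher, with a median log2 fold change of -0.08. Over all 8 libraries 1 was called lower, the copy Nfu_g_1_013765 (edgeR adjusted p = 0.0429). EFNA5B, an ephrin that repels growing axons, had 0.922, 0.562, 0.211 and 0.163 CPM in old libraries, against 0.508, 2.34, 3.22 and 3.56 CPM in young libraries. Its replicate 1 pair ran the other way, with the old library higher. Of the 55 other tested genes of its list, young neuron and axon growth, 20 were called lower and 4 higher within replicates 2 to 4, with a median log2 fold change of -0.26. Over all 8 libraries edgeR called none of them, with 9 lower and 2 higher at an unadjusted p under 0.05.

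BPTF, the large subunit of the NURF chromatin remodeller, had 4.78, 5.34, 5.18 and 4.81 CPM in old libraries, against 16.0, 28.4, 22.4 and 27.9 CPM in young libraries. A second gene of that name, Nfu_g_1_019785, had 82.0, 51.7, 51.0 and 53.4 CPM in old libraries, against 167, 92.0, 91.2 and 101 CPM in young libraries. CFI, complement factor I, which inactivates complement fragments, had 1.34, 2.15, 3.38 and 1.39 CPM in old libraries, against 5.66, 16.1, 14.5 and 14.8 CPM in young libraries. In young replicate 1 the level of CFI was well under that of the other young libraries, and in no old library did it reach that lowest young value. EPCAM, an adhesion molecule of epithelial cells, had 1.17, 0.656, 0.528 and 0.407 CPM in old libraries, against 1.23, 3.43, 2.77 and 2.23 CPM in young libraries. Its replicate 1 libraries were nearly level.

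HBAE1, named for an embryonic alpha globin, was close to 0 in old brain, with 0.0838, 0, 0.211 and 0 CPM in old libraries, against 3.19, 3.28, 1.79 and 1.82 CPM in young libraries. These old values are 1, 0, 2 and 0 reads. A second HBAE1 copy, Nfu_g_1_007603, lay just outside the threshold, with 0.503, 0.936, 0.740 and 1.14 CPM in old libraries, against 4.07, 5.78, 3.94 and 3.31 CPM in young libraries. The summed level of all 8 genes of the erythroid list was 98.2, 233, 203 and 223 CPM in old libraries, against 176, 546, 311 and 314 CPM in young libraries. Replicates 2 to 4 did not overlap, the replicate 1 pair was lower in old too, and only young replicate 1 reached into the old range. Most of it was the globin gene BA1, Nfu_g_1_007641. Of the 5 tested genes of the list besides HBAE1 (Nfu_g_1_022937), 3 were called lower and none higher within replicates 2 to 4, namely BA1, the second HBAE1 copy and HBBE2, and 2 over all 8 libraries, the second HBAE1 copy (edgeR adjusted p = 0.0498) and HBBE2 (edgeR adjusted p = 0.0384), named after their values were seen. The part of blood left in the brains in the globin values was not tested.

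**Figure D4:**
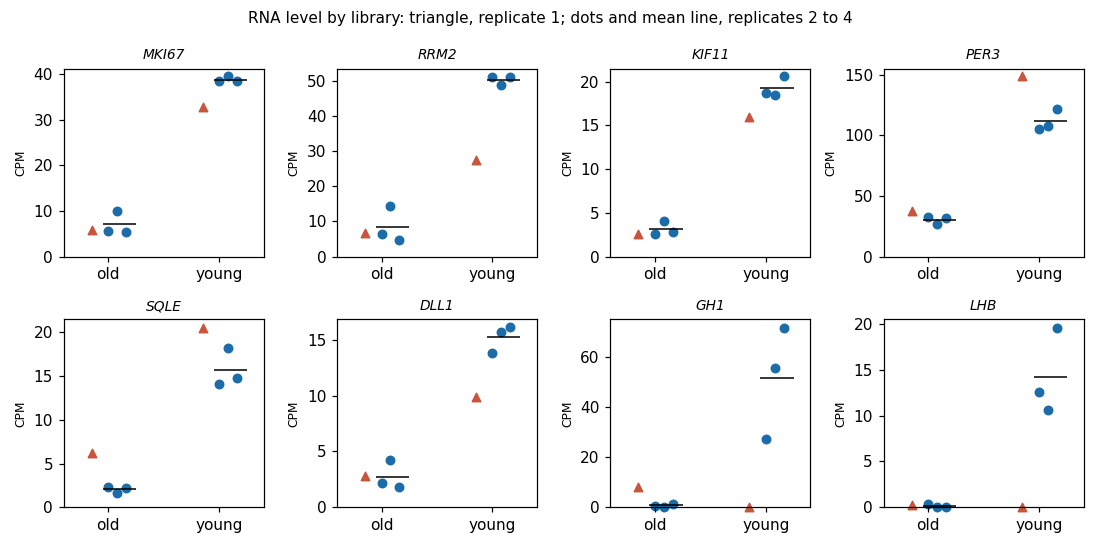
CPM of 8 of the 57 genes in each RNA library, old left of young, with replicate 1 as triangles and replicates 2 to 4 as dots with their mean as a line. The young triangle lies above all old points for MKI67, RRM2, KIF11, PER3, SQLE and DLL1, and at 0 for GH1 and LHB.

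Another set among the 57 did not keep its direction in the replicate 1 pair. For 9 genes the young replicate 1 library was at most 1/10 of the lowest other young library, a class defined after the values were seen. Their summed level was 114, 14.0, 2.96 and 9.13 CPM in old replicates 1 to 4, against 2.47, 848, 973 and 1192 CPM in young replicates 1 to 4. All 9 were higher in the old than in the young library of the replicate 1 pair. The definition sets young replicate 1 low and so favours this direction and the low young sum there.

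The named genes of this set are hormones of the anterior pituitary, a gland attached to the underside of the brain. GH1, growth hormone, had 8.04, 0.749, 0.317 and 1.47 CPM in old libraries, against 0, 27.2, 55.6 and 71.3 CPM in young libraries. In the replicate 1 pair it was at least 36.9-fold higher in the old library, taking 3 reads as the limit that a count of 0 allows in the young one. LHB, the beta subunit of luteinizing hormone, had 0.251, 0.375, 0 and 0.0815 CPM in old libraries, against 0, 12.6, 10.6 and 19.5 CPM in young libraries. These are the only genes of the 10 pituitary markers looked for that have an identifier here, so the pituitary content of each library rests on them alone. Young replicate 1 held no read of either, the other young libraries held both, and the old libraries held little. How much pituitary was taken with each brain is not given in the labels, and its part in these values was not tested.

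The other 7 genes of the set have no name. Nfu_g_1_014206 had the highest CPM of all 57 genes in young brain, with 68.8, 4.96, 0.846 and 4.48 CPM in old libraries, against 0.726, 622, 699 and 872 CPM in young libraries. Nfu_g_1_022436 had 24.6, 5.99, 0.528 and 1.55 CPM in old libraries, against 0.871, 146, 143 and 147 CPM in young libraries. Nfu_g_1_017941 had 7.63, 0.281, 0.106 and 0.244 CPM in old libraries, against 0.363, 17.4, 39.8 and 34.8 CPM in young libraries. In all 3, old replicate 1 was the highest old library and young replicate 1 the lowest young one, as for GH1. Nfu_g_1_020922 had 1.26, 0.843, 0.317 and 0.407 CPM in old libraries, against 0.145, 9.68, 14.0 and 27.6 CPM in young libraries. Nfu_g_1_020666 had 2.60, 0.562, 0.528 and 0.244 CPM in old libraries, against 0.0726, 9.13, 6.35 and 15.1 CPM in young libraries. Both were again higher in old than in young replicate 1. Nfu_g_1_000830 and Nfu_g_1_022357 were sparse, with at most 2.50 and 2.03 CPM in any library.

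Of all 26 genes without a name, 13 were lower and 13 higher in old in the replicate 1 pair, against 52.9% of all genes lower. The remaining 19 are those left after 7 were set apart on their young replicate 1 value, which favours a lower old value. In the replicate 1 pair these 19 genes were lower in old in 13 cases and at most 1/3 in 6. Their mean young levels were 3.76 to 15.9 times the mean old ones in replicates 2 to 4. The most abundant of them, Nfu_g_1_021098, had 25.8, 7.02, 7.82 and 9.29 CPM in old libraries, against 117, 44.4, 40.6 and 50.4 CPM in young libraries. Both replicate 1 libraries were the highest of their age, and their ratio was close to that of the other libraries.

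The threshold cut through a continuum. Just inside it, the highest old value was 0.329 of the lowest young value for CDK1, 0.327 for Nfu_g_1_021296 and 0.323 for ZDHHC9, a palmitoyl transferase. Just outside it, that ratio was 0.337 for SFXN3, a mitochondrial carrier protein, 0.338 for MSANTD3-TMEFF1 and 0.341 for Nfu_g_1_018061. The ratio in the replicate 1 pair was 0.291 for CDK1, 1.99 for Nfu_g_1_021296 and 0.846 for ZDHHC9, against 1.69 for SFXN3, 0.917 for MSANTD3-TMEFF1 and 0.235 for Nfu_g_1_018061.

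The 57 genes were short. Their median length, implied by the deposited counts and length-scaled values, was 1608 bases, against 2949 bases over the 16286 genes. Among 5 equal bins of all genes ordered by length, the rule was met by 24, 17, 10, 3 and 4 genes from short to long. The median log2 ratio of old over young CPM in replicates 2 to 4 ran from -0.44 in the bin of the shortest to -0.01 in that of the longest genes. The part of length in the choice of genes was not tested. The cell division members were longer than the list as a whole, with a median of 2448 bases.

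The footprint libraries could say little about these genes. Of the 31 named members, 18 matched exactly 1 symbol of the footprint table, and the other 13 had several copies there or no symbol. RRM2 and CFI are among the 18, although the RNA annotation holds a second gene of each name. Their footprint symbol may thus stand for either copy. Of the 18, 14 were listed at 0 in all 8 libraries. GH1 was above 0 in 2 libraries, old replicate 1 with 31.0 TPM and old replicate 2 with 84.6 TPM, where TPM is the deposited value rescaled to the same total in each library. PER3 had 12.0 TPM in young replicate 1, ISYNA1 had 33.0 TPM in young replicate 2 and KIF14 had 4.07 TPM in old replicate 2, each in that library alone. The summed level of the 18 was 31.0, 88.7, 0 and 0 TPM in old libraries, against 12.0, 33.0, 0 and 0 TPM in young libraries. Their means, 29.9 ± 41.8 TPM in old and 11.3 ± 15.6 TPM in young libraries (SD, n = 4 each), differed by less than the spread. Between 1379 and 2605 symbols were above 0 in an old footprint library and between 262 and 1490 in a young one, out of 28494. The most abundant symbol of each footprint library held 67.9% to 95.6% of its TPM. The TPM of every other symbol depend on that share, and its part in these values was not tested. Across all symbols, limma called 0 of 5200 tested, or 0%, with 77 higher and 9 lower in old at an unadjusted p under 0.05. Of the 18 matched genes, limma tested 3. A difference in the footprints of the 18 was not detectable in these libraries, and the footprints of the other members were not looked at.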

How the data were processed

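RNA was sequenced from 8 and ribosome footprints from 8 other whole-brain libraries, 4 per age. For RNA, the authors deposited whole-number counts of reads per gene for 26739 genes, made according to their processing notes with featureCounts 1.4.6-p4 after alignment by STAR 2.4.1d and demultiplexing by bcl2fastq 1.8.4. The study's methods name a killifish genome and gene build and counting without strand for RNA of fish at different ages, prepared by a stranded total RNA protocol and aligned by other software. Whether these hold for the counts used here is not given in the sources used here. The deposited RPKM values imply the same length of a gene in every library only when library totals are recycled down the table (median coefficient of variation 0.00325%, against 17.6% with each library's own total), so that most were scaled by another library's total. They gave gene lengths and 1 alternative. For footprints, the authors deposited FPKM values (RSEM 1.3.1 on STAR alignments, genome NotFur1), here rescaled to TPM.

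CPM used each library's own total. On that scale the median gene had a log2 ratio of old over young of -0.13 in replicates 2 to 4, and 0.00 after TMM scaling. The shift mattered for genes near the threshold, since 45 of the 57 genes met the rule with TMM-scaled totals. Counts were tested with edgeR 4.0.16 (TMM, filterByExpr, quasi-likelihood, age only) and footprints with limma 3.58.1 on log2(TPM + 1) at a mean of at least 1 TPM, both with Benjamini-Hochberg adjustment at 0.05. Scripts were tested on simulated data. DESeq2 1.42.0 was an alternative. Every pair of RNA libraries of an age differed by more than sampling noise. The members, gene lists and tests were chosen with earlier results of these data known. Named are members in a fixed list, the 10 with the highest young CPM, the 10 with the lowest ratio at a young mean of at least 5, the 5 with most footprints, the 5 highest that reversed in replicate 1 and the genes next to the threshold. In a list, up to 3 other genes are named, the most abundant, and same-named copies and some further named members were added after their values were seen. Marker lists of 12 cell types were set, and those with few identifiers carry little weight. No genome sequence was used here, so no sequences are shown.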

Additional observations from a re-analysis of the deposited data

Results flagged for a closer look

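Looked at were 68 groups of 4 libraries, from 33 genes named by the rule above and the cell division sum, at each age. Genes added later, among them BPTF, CFI, CKAP2L, SLC38A4 and EPCAM, were not looked at. In 13 of the groups, 1 library stood apart. Its gap to its nearest neighbour took up a larger share of the range of the group than the 95% critical value of Dixon for 4 samples. Chance gives such a gap in about 1 in 20 groups of values that were not chosen beforehand. The genes here were chosen on the replicates other than replicate 1, and some were named because they reversed in replicate 1. Such a choice can favour gaps at replicate 1. The number of groups flagged can therefore not be compared with the chance rate, and the flags only mark values for a closer look.

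In replicate 1, old libraries stood high for Nfu_g_1_014206 (68.8 CPM, the others 0.846 to 4.96), GH1 (8.04 CPM, the others 0.317 to 1.47), Nfu_g_1_017941 (7.63 CPM, the others 0.106 to 0.281), Nfu_g_1_020666 (2.60 CPM, the others 0.244 to 0.562), SQLE (6.20 CPM, the others 1.69 to 2.34) and Nfu_g_1_021098 (25.8 CPM, the others 7.02 to 9.29). Young replicate 1 stood high for Nfu_g_1_021098 (117 CPM, the others 40.6 to 50.4) and low for Nfu_g_1_022436 (0.871 CPM, the others 143 to 147), RRM2 (27.5 CPM, the others 48.7 to 51.1) and MKI67 (32.7 CPM, the others 38.4 to 39.5).

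Old replicate 3 stood high for MKI67 (10.1 CPM, the others 5.46 to 5.78) and CCNB1 (2.75 CPM, the others 1.63 to 1.78), and young replicate 4 for RRM1 (11.5 CPM, the others 8.86 to 9.29).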

How the results depend on the processing

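The number of genes that met the rule moved with its settings. It was 57 as reported, 28 with a mean CPM of at least 5, 139 with no minimum, 228 at 1/2 and 24 at 1/4 of the young level, 9 over all 8 libraries and 53 to 194 with 1 of the 6 libraries left out, 194 being without young replicate 2. TMM-scaled totals kept 45 of the 57 genes, 12 of the 18 cell division genes among them, and the deposited RPKM values gave 64 genes, of which 42 were among the 57. The ratios of the named genes under TMM scaling or with 1 library left out reuse the libraries of the choice and are no check of direction. In the replicate 1 pair, 16 of the 57 genes were higher in old. HBAE1 without old replicate 3 gave no ratio, since the other old libraries hold no read. The 26 genes at most 1/3 in the replicate 1 pair were between 20 and 35 under the alternatives.

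Genes called by edgeR over all 8 libraries numbered 57, against 5298 within replicates 2 to 4, 4192 with replicate 1 as a term of its own, 758 with DESeq2, 37 without a filter on low counts, and 0 to 638 with 1 library left out, 638 being without young replicate 1. Within replicates 2 to 4, leaving out 1 more library gave 2106 to 5078, an alternative added after the data were seen. Of the genes called by DESeq2, 408 were lower in old, out of 22196. The called genes of the cell cycle list lower in old, members apart, were 1 over all 8 libraries, 33 within replicates 2 to 4, 31 with the term, 18 with DESeq2, 4 with upper quartile scaling, 0 to 8 with 1 library left out and 27 to 37 within replicates 2 to 4 with 1 left out. In the same order of replicates 2 to 4, the term and DESeq2, against 0 over all 8 libraries, the DNA replication list had 15, 15 and 10, the chromatin list 23, 17 and 6, the progenitor list 23, 20 and 6 and the sterol list 7, 6 and 2. With 1 library left out, these 4 lists had 0 to 8, 0 to 5, 0 to 5 and 0 to 2 (the most without young replicate 1), and 12 to 16, 16 to 22, 19 to 25 and 3 to 7 within replicates 2 to 4.

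Replicate numbers were not taken to pair the samples, since nothing says that a number marks a shared origin and not every same-numbered pair deviated together. Deviations of same-numbered old and young libraries correlated at 0.78, 0.44, 0.0083 and 0.53 for RNA and at 0.049, 0.089, 0.015 and 0.29 for footprints, and not every RNA library correlated best with its own number (old replicate 2 with young replicate 3 at 0.62). With the replicate block, edgeR called 2658 of 16759 genes, 964 of them lower in old. In the cell cycle, DNA replication, chromatin, progenitor and sterol lists, members apart, it called 26, 12, 14, 16 and 3 lower in old. limma called 0 footprint symbols with the replicate block and in every other alternative, with 31 to 257 at an unadjusted p under 0.05. The footprint sum of the members was 18.7 TPM higher in old, and 272 TPM higher without the 20 most abundant symbols, which rescales all others. It was 10.2 TPM lower in old without GH1 and between 0.921 TPM lower and 28.6 TPM higher with 1 library left out. Low reads limit the genes near 1 CPM, and footprints limit every member.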
